A study of Mus musculus with 6 samples.

Results

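The genes of the cytosolic ribosome were followed in whole testes of mouse embryos at E12.5, with and without Ppp1r3c in the gonadal somatic cells. Members were chosen by symbol: Rpl or Rps, digits and an optional a or x, together with Rplp0, Rplp1, Rplp2 and Rpsa. The testis-type paralogs Rpl10l and Rpl39l, the ribosomal S6 kinases and pseudogenes were not members. The rule found 76 of the 24470 genes in the table, 30 of the small subunit and 46 of the large subunit, and all 76 were among the 15577 genes with enough counts to test. By the spelling of their symbols, Fau and Rps3a1, which encode ribosomal proteins too, fell outside the rule and are described with the paralogs.

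The 3 control samples were Ppp1r3c f/f without Cre, and the 3 cKO (conditional knockout) samples were Sf1-Cre Ppp1r3c f/f, both maintained on a C57BL/6 background. Sf1-Cre is a Cre transgene under Nr5a1 (Sf1) regulatory sequences, so that deletion is expected in gonadal somatic cells, Sertoli cells among them, and not in germ, endothelial or blood cells. Each sample was a pool of 2 gonadal pairs, and RNA was sequenced as stranded, poly(A)-selected libraries. The Ppp1r3c protein targets protein phosphatase 1 to glycogen and favours its storage.

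A cytosolic ribosome is built from ribosomal RNAs and a single copy of most ribosomal proteins, so that the proteins are needed in near-equal amounts. Their mRNAs are short and very abundant, and most begin with a C followed by an unbroken run of pyrimidines, the 5′ terminal oligopyrimidine (TOP) tract, through which mTORC1 and LARP1 adjust their translation and stability according to nutrients. In whole-testis RNA their level is a sum over germ, supporting, interstitial, endothelial and blood cells. In such RNA, fewer cells of a type with many ribosomes and less ribosomal protein mRNA per cell cannot be told apart.

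Promoter sequences from RefSeq (GRCm38.p6) were matched to 56 of the 76 members. A run of at least 6 pyrimidines that began with C within 10 bases of a listed start was found for 31 of the 56 members (55.4%), against 21.9% of the 27025 genes with an entry. The 50 bases around the start, 20 before it and 30 from it on, are given here for 7 members with a run, printed in capitals, and for 2 without one. Rps12, Rps21, Rpl39 and Rpl27a are among the 5 members of lowest p, Rps6 encodes the substrate of the S6 kinases, and Rps9 and Rps2 are near the upper end of the fold changes. Without a run are Rps28, which had the lowest fold change, and the X-linked Rps4x near the upper end. The window of Rps28 lies wholly upstream of the counted gene, which reaches to position 33824498 of chr17. It cannot tell whether the counted Rps28 mRNA begins with a run.
Rps12: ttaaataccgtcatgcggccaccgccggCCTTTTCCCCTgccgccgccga
Rps21: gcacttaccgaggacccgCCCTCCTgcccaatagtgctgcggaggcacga
Rpl39: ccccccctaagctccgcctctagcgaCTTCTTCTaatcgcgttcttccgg
Rpl27a: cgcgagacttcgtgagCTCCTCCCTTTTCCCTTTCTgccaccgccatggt
Rps6: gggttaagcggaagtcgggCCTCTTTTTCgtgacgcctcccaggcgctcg
Rps9: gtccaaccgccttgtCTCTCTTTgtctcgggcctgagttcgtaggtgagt
Rps2: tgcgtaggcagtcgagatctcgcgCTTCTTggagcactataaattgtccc
Rps28: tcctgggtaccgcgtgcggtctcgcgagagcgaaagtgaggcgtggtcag
Rps4x: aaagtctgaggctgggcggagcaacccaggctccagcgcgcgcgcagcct
The windows lie at chr10:23787180-23787229 (minus strand, Rps12), chr2:180257359-180257408 (plus, Rps21), chrX:37085193-37085242 (minus, Rpl39), chr7:109519175-109519224 (plus, Rpl27a), chr4:86857338-86857387 (minus, Rps6), chr7:3704021-3704070 (plus, Rps9), chr17:24720043-24720092 (plus, Rps2), chr17:33824533-33824582 (minus, Rps28) and chrX:102189362-102189411 (minus, Rps4x). Windows with a run stood at both ends of the range of fold changes, and the window of Rps4x, without one, stood near the upper end. The 31 members with a run had a median log2 fold change of -0.14, and the 25 with an entry and no run had a median of -0.13. The ETS-factor core CCGGAAG, searched on both strands of the 300 bases, was in the promoters of 41.1% of the 56 members, against 9.93% of all genes with an entry and 17.8% of the other genes tested. A match of letters is a description of these windows, and listed starts can lie several bases from the true start.

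Library totals ranged from 16139487 counts (control replicate 1) to 44145158 counts (control replicate 2), and each library held between 672567 and 1904182 counts of the 76 genes. The targeted gene followed the labels: Ppp1r3c was at 22.1 to 24.4 CPM (counts per 1000000, scaled by TMM factors, which adjust for RNA composition) in the controls and at 4.71 to 5.96 CPM in the cKO samples. One library stood apart. In cKO replicate 3, Xist, which XX cells transcribe from their inactive X chromosome, was at 379 CPM and in the other libraries at 0.369 to 1.0004 CPM, and Fst, a pre-granulosa marker, at 50.9 against at most 2.02. Whether XX gonads were in the pool behind this library was not tested, so the cKO mean covers a library that carries Xist, and values without it are given too. Germ cell markers were also lower in the cKO group, but control replicate 1 (614 CPM) lay below cKO replicate 1 (650 CPM). Their summed level (16 genes) was 614 to 988 CPM in the controls and 323 to 650 CPM in the cKO samples, and Nanos2 was the marker among them that had libraries at 0. The part of germ cell number in the values below was not tested.

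The question put to the members was whether they moved together between control and cKO testes and whether any stood outside the rest. The 76 genes held a slightly smaller part of the RNA in the cKO samples. Their summed share of all counts was 4.17, 4.31 and 3.92% in control replicates 1, 2 and 3, and 3.78, 3.68 and 3.90% in cKO replicates 1, 2 and 3. The mean was 4.13% ± 0.200 (SD, n = 3) in controls and 3.78% ± 0.113 (SD, n = 3) in cKO samples, a difference of 0.348 percentage points or 8.43% of the control share. The groups did not overlap on this scale, though control replicate 3 and cKO replicate 3 nearly touched. On the TMM scale they did overlap, with 39223 CPM summed over the members in control replicate 3 and 39455 CPM in cKO replicate 3.

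**Figure D1:**
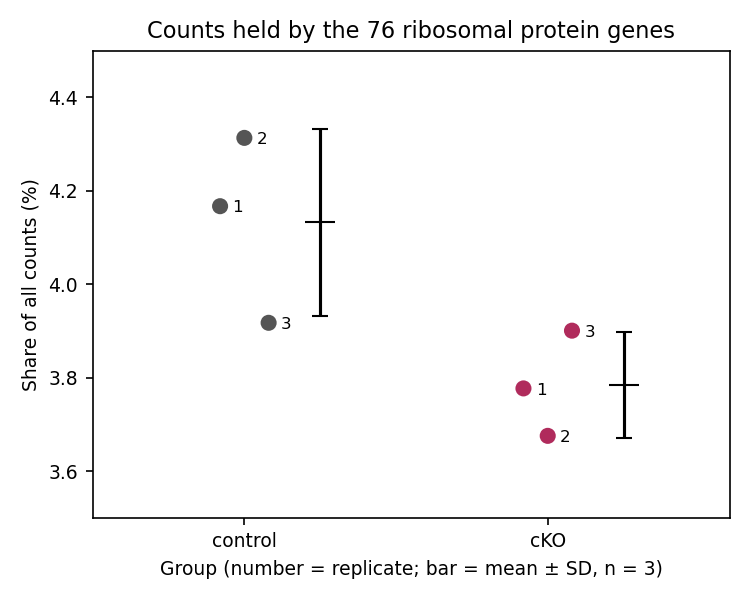
Share of all counts (%) held by the 76 ribosomal protein genes in each of the 6 samples, with group means and SDs (n = 3), on an axis that runs from 3.5 to 4.5%. Controls ranged from 3.92 to 4.31% and cKO samples from 3.68 to 3.90%.

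Of the 76 members, 74 had a log2 fold change below 0 (cKO against control), where 50.9% of all tested genes did. Among the 103 other genes with annotated exons of up to 700 bases and a mean log2 CPM of 4 or more, 93.2% did. The median log2 fold change of the members was -0.14, a level 9.06% lower, against -0.0034 over all tested genes. Fold changes ran from -0.23 (Rps28) to 0.0094 (Rpl29), with an SD of 0.056 among the members. No member passed an adjusted p of 0.05 in edgeR's quasi-likelihood test, by which 0.0385% of all genes did, and the lowest adjusted p among the members was 0.377. At an unadjusted p below 0.05, 35 members were lower, where the background was 5.8%, and 0 were higher, where it was 5.56%. DESeq2 called 1 member, Rps12 (adjusted p = 0.0133), where it called 0.776% of all genes. In DESeq2 that call was lost without control replicate 2, cKO replicate 2 or cKO replicate 3 (adjusted p = 0.0843, 0.0768 and 0.155), and kept when control replicate 1 (0.0171), cKO replicate 1 (0.00853) or control replicate 3 was left out. Over the edgeR and limma alternatives run, its adjusted p was 0.172 to 0.777. In 37 members every cKO sample lay below every control sample, a pattern that 7.17% of all genes showed. No member had every cKO sample above every control sample, which 8.42% of all genes did.

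The subunits were counted apart. Of the 30 small subunit genes, 29 were below 0 and 15 had an unadjusted p below 0.05, and of the 46 large subunit genes, 45 and 20. Their median log2 fold changes were -0.14 and -0.13, and the small minus large difference of -0.012 was within the spread of that difference between replicates (SD 0.012). Among members the SD of the fold changes, 0.056, was below the median SE of a single gene, 0.061. Over the 1289 other genes in the same range of mean level the median was 0.016 and the SD was 0.110 at a median SE of 0.059. Most of these genes had longer exons than the members.

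**Figure D2:**
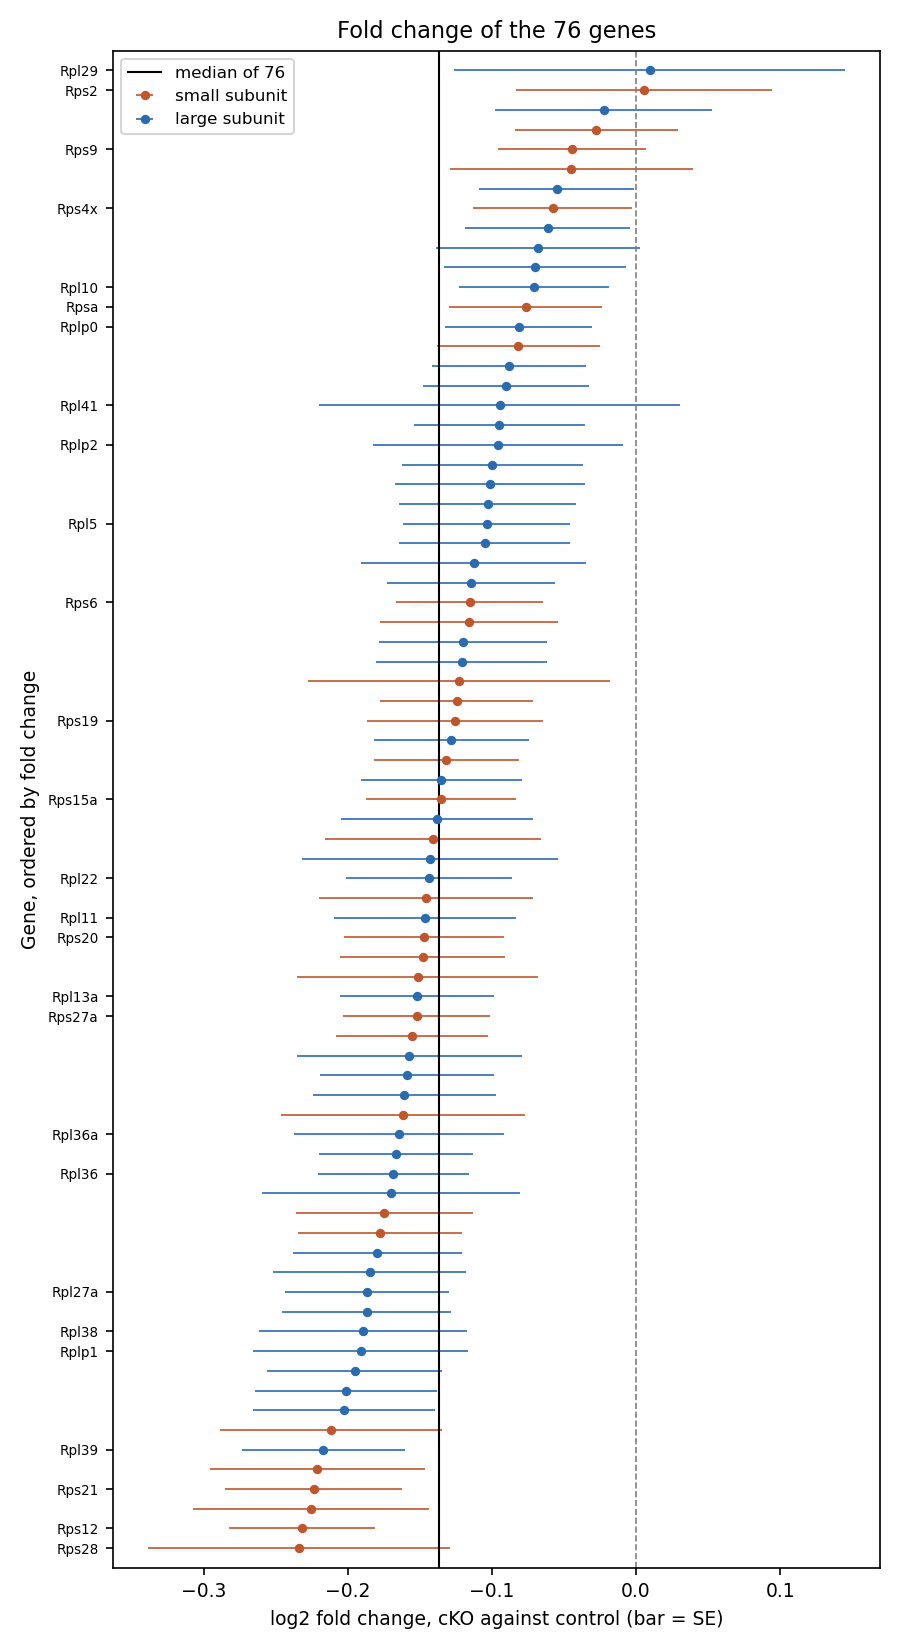
log2 fold change of each of the 76 genes (cKO against control, edgeR) with its SE, ordered from Rpl29 at the top to Rps28 at the bottom and coloured by subunit, with names for the 2 ends and for the members described in the text. The line marks the median of -0.14, and 74 of the 76 points lie left of 0.

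The members also moved together from sample to sample. Each sample was described by the distance of a gene's log2 CPM from its control mean. The median of this distance over the 76 members was 0.011, 0.055 and -0.074 in control replicates 1, 2 and 3, and -0.13, -0.19 and -0.079 in cKO replicates 1, 2 and 3. Control replicate 3 and cKO replicate 3 were thus at about the same level, control replicate 2 was the highest and cKO replicate 2 the lowest. The number of members above their control mean was 44, 72 and 6 in control replicates 1 to 3, and 1, 0 and 10 in cKO replicates 1 to 3. Control replicate 2 was the highest of the 6 samples for 51 members, and cKO replicate 2 the lowest for 62. Among the controls alone, replicate 3 was the lowest for 68 of 76 members.

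Subtracting each sample's member median from its members removed 63.7% of the squared deviations of log2 CPM around the gene means. These means were taken over all 6 samples, so the deviations include the difference between the groups as well as the spread within them. The same step removed 47.5% for 78 mitochondrial ribosomal protein genes, 68.9% for 37 ribosome biogenesis genes, 31.1% for 21 translation factors and 1.69% for the 1289 other genes in the members' range of level. Those 1289 genes differ from the members in length. Exons were over 4000 bases in 697 of them and up to 1000 bases in 20, against 51 of the 76 members of up to 1000 bases. The step was not run on short other genes. With members centred on their mean over all samples, the median SD across the 6 samples was 0.103 before and 0.048 after the step, on the log2 scale. Leaving out control replicate 3 moved the median log2 fold change of the members to -0.19 and the count of members lower at an unadjusted p below 0.05 to 58, where the background was 4.93% of all genes. Leaving out cKO replicate 2 moved them to -0.11 and to 11 (background 3.59%). Without cKO replicate 3, the library with Xist, they were -0.16 and 37 (background 4.29%), and 76 of 76 members were below 0. Without control replicate 1 and without control replicate 2 that count was 21 and 18, with backgrounds of 7.76 and 3.27%.

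**Figure D3:**
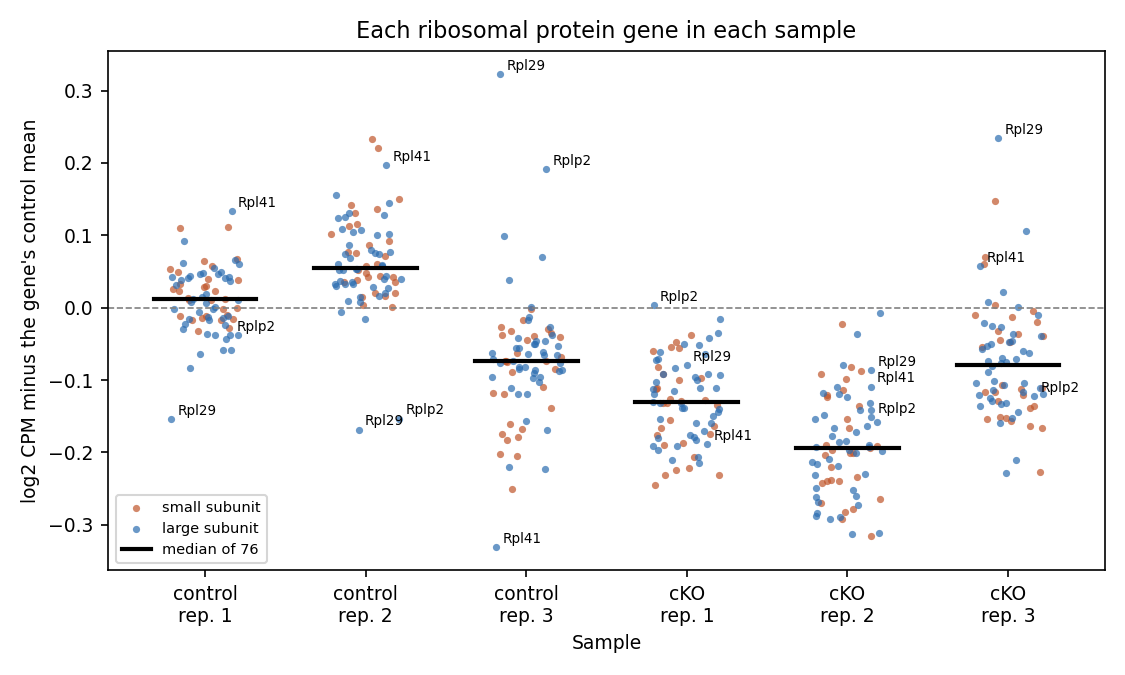
Distance of each of the 76 genes from its control mean (log2 CPM) in each of the 6 samples, with the sample's median as a black line and genes coloured by subunit. The medians are 0.011, 0.055 and -0.074 in controls and -0.13, -0.19 and -0.079 in cKO samples, and Rpl29, Rpl41 and Rplp2 are labelled as the genes farthest from their sample's median.

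The 5 members of lowest p were all lower in the cKO samples. Rps12, which encodes a protein at the beak of the small subunit (chr10:23785183-23787209, minus strand, mm10), was at 526, 539 and 514 CPM in the controls and at 461, 434 and 449 CPM in the cKO samples. Every cKO sample lay below every control sample, and the mean was 14.8% lower. Its log2 fold change was -0.23 ± 0.051 (SE), with an adjusted p of 0.377 in edgeR. Of the stretches of Rps12 as long as a read, 57.5% also occur unchanged in an annotated pseudogene. Rps21, a gene of the small subunit (chr2:180257379-180258444, plus strand), was at 212, 208 and 187 CPM in the controls and at 173, 166 and 180 CPM in the cKO samples. Its groups did not overlap either, and its log2 fold change was -0.22 ± 0.061 (SE).

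Rpl39, an X-linked gene for a small basic protein that lines the peptide exit tunnel (chrX:37082518-37085222, minus strand), was at 183, 178 and 170 CPM in the controls and at 161, 145 and 151.1 CPM in the cKO samples. These groups were apart, with a log2 fold change of -0.22 ± 0.057 (SE). Rpl27a, a large subunit gene (chr7:109519195-109522369, plus strand), was at 418, 415 and 386 CPM against 356, 341 and 374 CPM. Rpl36, a large subunit gene as well (chr17:56613395-56614246, plus strand), was at 216, 212 and 202 CPM against 185, 181 and 194 CPM. In both, the lowest control was replicate 3 and the highest cKO sample replicate 3, and the log2 fold changes were -0.19 ± 0.057 and -0.17 ± 0.052 (SE). Each of these 5 genes had an adjusted p of 0.377 in edgeR.

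At the other end, 2 members had a fold change above 0, and neither was separable from 0. Rps2, a core small subunit gene at the mRNA entry channel (chr17:24720063-24721927, plus strand), was at 897, 989 and 796 CPM in the controls and at 868, 838 and 986 CPM in the cKO samples. Its log2 fold change was 0.0054 ± 0.089 (SE, adjusted p = 0.988, edgeR). Rpl29, a large subunit gene (chr9:106429411-106431568, plus strand), was at 159, 157 and 221 CPM against 167, 167 and 208 CPM. Replicate 3 was the highest in both groups of Rpl29, and the log2 fold change of 0.0094 ± 0.136 (SE, adjusted p = 0.986, edgeR) turned below 0 without control replicate 1 (-0.067), without control replicate 2 (-0.089) or without cKO replicate 3 (-0.10). Rps2 turned below 0 without control replicate 3 (-0.078) or without cKO replicate 3 (-0.068). Stretches as long as a read that also occur unchanged in an annotated pseudogene made up 47.5% of Rps2 and 32.1% of Rpl29, and reads from such stretches may not be assigned to one gene.

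Next, members were searched for outliers. An outlier was defined as a member more than 3 scaled median absolute deviations (0.055 on the log2 scale) from the members' median fold change. No member met this rule. The farthest above was Rpl29 at 2.64 deviations, followed by Rps2 at 2.57, and the farthest below was Rps28 at -1.75. By a second rule, more than 2 of the gene's own SE from the members' median, no member was outside either, and the farthest below was Rps12 at -1.87. Some members did stand apart within single samples, in ways that the group means hide, and were picked after their values were seen. In control replicate 3, Rpl29 was 0.40 above the sample's member median on the log2 scale, Rplp2 was 0.27 above it and Rpl41 was 0.26 below it. In cKO replicate 3, Rpl29 was 0.31 above and Rps2 was 0.23 above. With distances taken from the control mean, as in the per-sample medians, and each sample's median subtracted, Rpl29 had the widest spread over the 6 samples (SD 0.248), followed by Rplp2 (0.164), Rpl41 (0.158), Rpl3 (0.128) and Rpl30 (0.126), where the median member had 0.045.

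**Figure D4:**
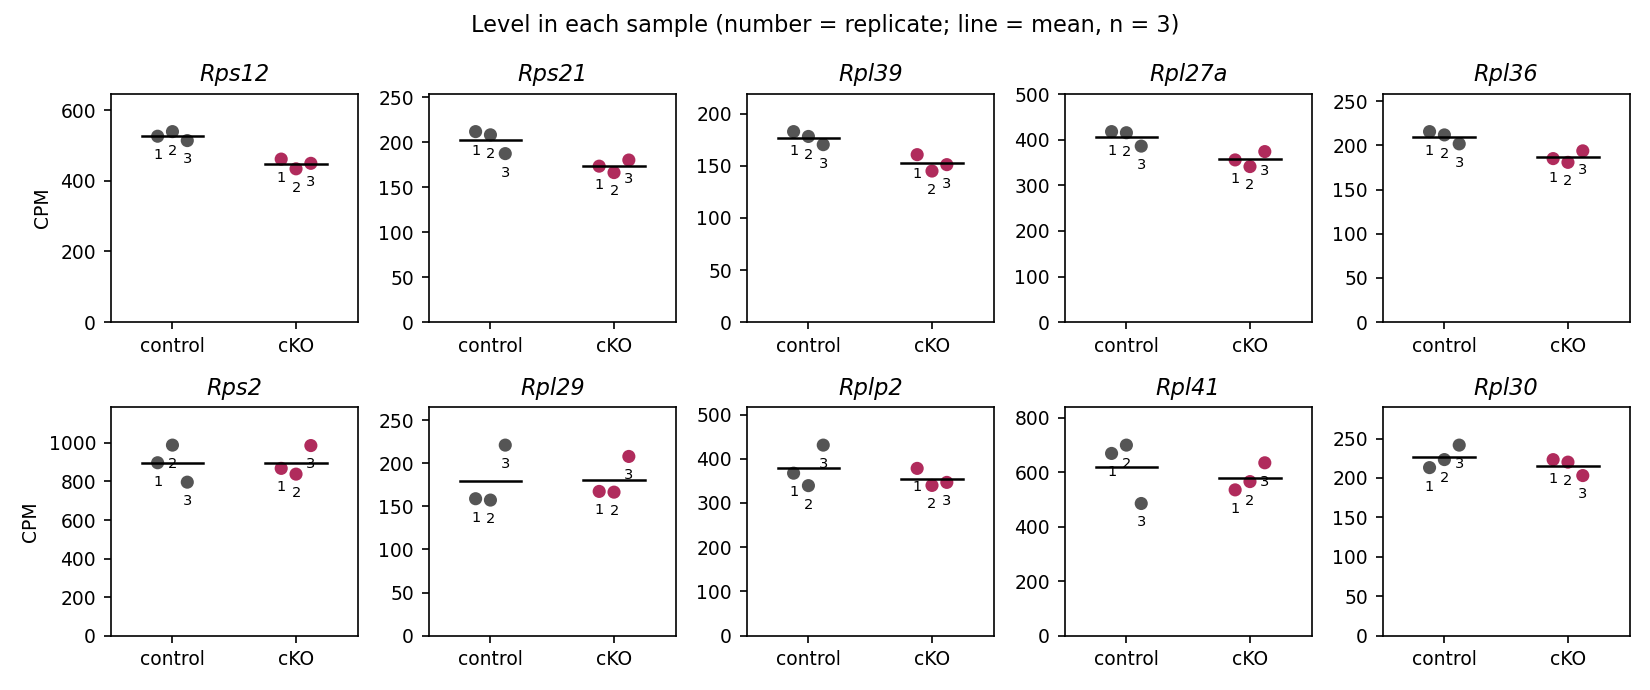
CPM in each of the 6 samples, with group means (n = 3), for the 5 members of lowest p (top row) and for Rps2, Rpl29, Rplp2, Rpl41 and Rpl30 (bottom row), on axes that start at 0. The top row has no overlap between groups (Rps12 at 514 to 539 CPM against 434 to 461 CPM). In the bottom row replicate 3 lies farthest from its group mean in the controls, the cKO samples or both, as for Rpl41 at 485 CPM in control replicate 3.

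The stalk of the large subunit is made of the acidic P-proteins that recruit elongation factors. Among their genes is Rplp2, which stood apart in control replicate 3. Rplp0, the base of the stalk (chr5:115559467-115563729, plus strand), was at 1330, 1344 and 1313 CPM in the controls and at 1248, 1225 and 1296 CPM in the cKO samples. Its groups did not overlap, and its log2 fold change was -0.081 ± 0.051 (SE). Rplp1 (chr9:61913283-61914510, minus strand) was at 608, 700 and 597 CPM against 573, 518 and 578 CPM, also without overlap, at -0.19 ± 0.074 (SE). Rplp2 (chr7:141447650-141451342, plus strand) was at 367, 339 and 431 CPM against 378, 340 and 347 CPM. Here the groups overlapped and control replicate 3 was the highest sample, the log2 fold change was -0.096 ± 0.087 (SE), and it was 0.0014 without control replicate 3. Adjusted p-values (edgeR) of the P-protein genes were 0.565, 0.401 and 0.694.

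Rpl5 and Rpl11 encode the proteins that, with 5S ribosomal RNA, can bind Mdm2 and so connect ribosome assembly with p53. Rpl5 (chr5:107900528-107909005, plus strand) was at 551, 590 and 548 CPM in the controls and at 543, 494 and 534 CPM in the cKO samples, without overlap, and Rpl11 (chr4:136049948-136053371, minus strand) was at 520, 515 and 469 CPM against 455, 427 and 477 CPM, where cKO replicate 3 lay above control replicate 3. Their log2 fold changes were -0.10 ± 0.058 and -0.15 ± 0.063 (SE). Of 15 genes listed as p53 targets, 9 were below 0, with a median of -0.030, 3 were lower and 0 higher at an unadjusted p below 0.05. Among them Bax, a gene of mitochondrial apoptosis, had the lowest p, at 52.4, 58.5 and 54.7 CPM in the controls and 43.5, 42.3 and 45.1 CPM in the cKO samples (adjusted p = 0.377 in edgeR and 0.00918 in DESeq2).

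Rps6, the substrate of the S6 kinases downstream of mTORC1 (chr4:86854099-86857367, minus strand), was at 381, 388 and 384 CPM in the controls and at 350, 342 and 372 CPM in the cKO samples. The controls lay close together (SD 3.53 CPM), all cKO samples were below them, and the log2 fold change was -0.12 ± 0.051 (SE, adjusted p = 0.439, edgeR). Of its read-length stretches 82.5% also occur in pseudogenes, the largest part among the members. Among 18 genes of mTORC1 signalling and the Myc pathway, 11 were below 0, the median was -0.012, and at an unadjusted p below 0.05 none was lower and 1 was higher. That gene, Myc, was at 21.0, 23.4 and 20.1 CPM in the controls and 29.1, 23.6 and 24.4 CPM in the cKO samples (adjusted p = 0.400, edgeR).

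The X-linked members were set apart because of the library with Xist. The 4 X-linked members had a median log2 fold change of -0.12 and the 72 autosomal members one of -0.14. Rpl10, whose protein joins the large subunit late (chrX:74270816-74273135, plus strand), was at 651, 645 and 601 CPM in the controls and at 601, 598 and 606 CPM in the cKO samples, at -0.071 ± 0.052 (SE). Rpl36a (chrX:134585654-134588062, plus strand) was at 250, 256 and 224 CPM against 211, 204 and 236 CPM, at -0.16 ± 0.073 (SE). Rps4x (chrX:102184941-102189391, minus strand) was at 951, 991 and 933 CPM against 927, 880 and 955 CPM, at -0.058 ± 0.055 (SE). The groups of all of these except Rpl39 overlapped, and cKO replicate 3 was the highest cKO sample of Rpl10, Rpl36a and Rps4x, as it was for 54 of all 76 members.

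The other members with particular roles lay within the same narrow band. Rps27a, which encodes ubiquitin fused to a small subunit protein (chr11:29545842-29548040, minus strand), was at 640, 644 and 621 CPM in the controls and at 593, 553 and 570 CPM in the cKO samples, without overlap, at -0.15 ± 0.051 (SE). Rpl13a, known as part of an inhibitor of translation in inflammation (chr7:45125563-45128745, minus strand), was at 915, 908 and 852 CPM against 815, 780 and 813 CPM, also without overlap, at -0.15 ± 0.053 (SE). Rpsa, the laminin receptor precursor (chr9:120127766-120132369, plus strand), was at 1295, 1363 and 1275 CPM against 1258, 1211 and 1262 CPM. Control replicate 3 and cKO replicate 3 were only just apart, and its log2 fold change was -0.077 ± 0.053 (SE).

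Rps19, the gene most often mutated in Diamond-Blackfan anemia (chr7:24884714-24889802, plus strand), was at 425, 426 and 377 CPM in the controls and at 364, 381 and 379 CPM in the cKO samples, with control replicate 3 inside the cKO range, at -0.13 ± 0.061 (SE). Rpl38, known for patterning of the mouse axial skeleton (chr11:114668543-114672331, plus strand), was at 169, 184 and 160 CPM against 158, 138 and 154 CPM, at -0.19 ± 0.072 (SE). Rpl22, known from T cell development (chr4:152324436-152334082, plus strand), was at 339, 360 and 319 CPM against 313, 297 and 312 CPM, at -0.14 ± 0.058 (SE). The groups of Rpl38 and of Rpl22 did not overlap. Rpl41, whose protein is the shortest of the ribosome (chr10:128548110-128549168, minus strand), was at 669, 700 and 485 CPM against 535, 566 and 635 CPM. Its controls enclosed all cKO samples, at -0.095 ± 0.126 (SE), and without control replicate 3 its log2 fold change was -0.25.

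Levels between members were compared per length, as CPM per kilobase of annotated exons. They ran from 83.3 to 1369, with a median of 563. The highest were Rpl41 (1369 CPM per kilobase), Rplp1 (1194) and Rps9 (1079), and the lowest were Rps15a (83.3), Rps20 (122) and Rpl22 (158). Rps9, a small subunit gene (chr7:3704041-3706897, plus strand), was at 839, 831 and 798 CPM in the controls and at 772, 810 and 811 CPM in the cKO samples, at -0.045 ± 0.051 (SE). Rps15a (chr7:118104374-118116147, minus strand) was at 447, 465 and 442 CPM against 427, 396 and 411 CPM, and Rps20 (chr4:3831584-3835655, minus strand) at 492, 487 and 448 CPM against 435, 416 and 438 CPM, both without overlap. The exons annotated for Rps15a and Rps20 add up to 5179 and 3706 bases, the longest of the 76, so their low level per length rests on long annotated forms, whose use in the testis was not tested.

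Fold changes of the members were also set against the length of their annotated exons, and the class of shortest exons had the lowest median. It was -0.16 in the 28 members of up to 700 bases, -0.12 in the 23 of over 700 and up to 1000 bases, -0.11 in the 15 of up to 1500 bases and -0.11 in the 8 of up to 2500 bases. The 2 longer members, Rps20 and Rps15a, had -0.15 and -0.14, so there was no even order over the classes. Among other genes with a mean log2 CPM of 4 or more, the median was -0.12 for the 103 genes of up to 700 bases, -0.065 for the 211 of over 700 and up to 1000 bases and 0.022 for the 3698 over 4000 bases. Of the 103 short other genes, 96 were below 0, and at an unadjusted p below 0.05 (edgeR) 20 were lower and 1 was higher. In 18 of them every cKO sample lay below every control sample. Of the 28 members of that length 28 were below 0, with 15 lower and 0 higher, and 11 had no overlap. The 103 short other genes also moved between libraries as the members did, with medians of 0.031, 0.119 and -0.14 in control replicates 1 to 3 and -0.12, -0.16 and -0.054 in cKO replicates 1 to 3. Of them, 30 were respiratory chain or ATP synthase genes by symbol, 9 were mitochondrial ribosomal protein genes and 4 were paralogs or fusions of the members. When the median of the other genes in a member's length class was subtracted, the median of the members was -0.060 and 9 of 76 were above 0. The length classes were chosen after the values were seen, and the part of transcript length in the lower level of the members was not tested further. Of the other genes in the members' own range of level, the 20 with up to 1000 bases had a median of -0.045, against -0.14 for the 51 members of that length.

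**Figure D5:**
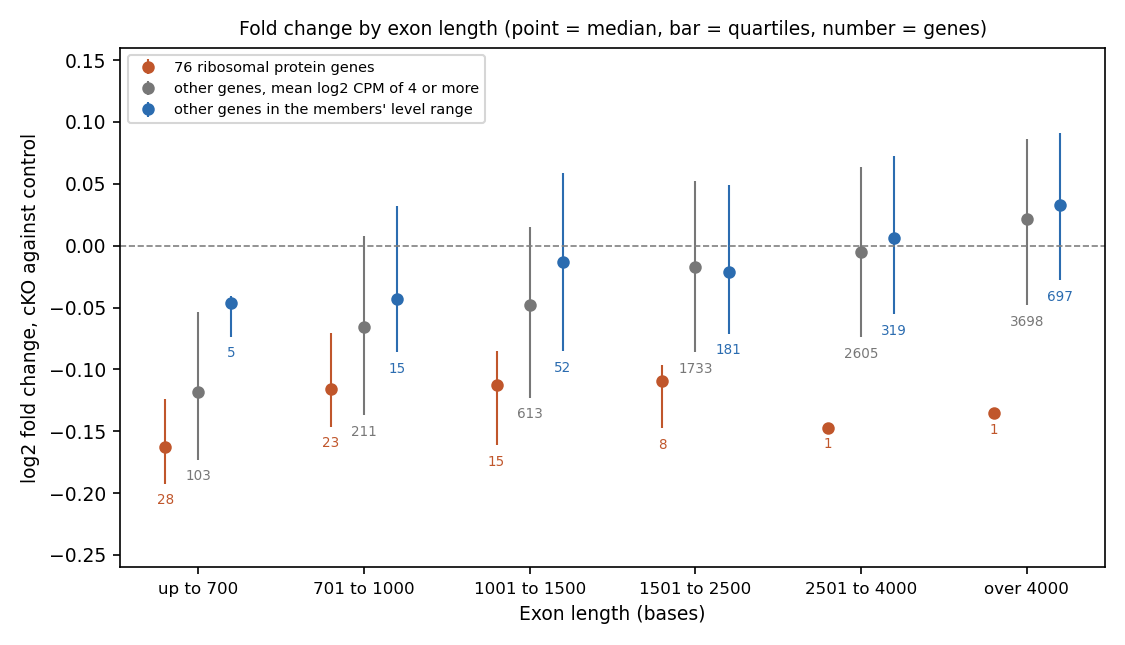
log2 fold change (cKO against control) by exon length for the 76 members, for other genes with a mean log2 CPM of 4 or more and for other genes in the members' range of level. Points are medians, bars quartiles and numbers the genes in a class, and in the shortest class the medians are -0.16, -0.12 and -0.046.

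Many ribosomal protein genes have processed pseudogenes, whose copies of the sequence can take up reads. In 15 members no read-length stretch occurred in an annotated pseudogene, and in 14 more than 50% of the stretches did. The median log2 fold change was -0.14 in the 15 members without such a stretch, -0.15 in the 25 with up to 25% and -0.13 in the 36 with more than 25%. Rps21, Rpl39, Rplp1, Rpl13a and Rpl22 were among the members without one.

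Of the 13 listed paralogs and fusion genes 12 could be tested, 11 were below 0 and the median was -0.15, with 4 lower and 0 higher at an unadjusted p below 0.05. Fau, which encodes a ribosomal protein fused to a ubiquitin-like sequence, had a log2 fold change of -0.11, and Rps3a1 had -0.14, where the members' median was -0.14. The paralogs Rpl10l and Rpl39l, which stand in for X-linked members in spermatogenic cells, lay far below. Rpl10l was at 6.90, 9.12 and 9.44 CPM in the controls and at 3.96, 3.75 and 5.02 CPM in the cKO samples, a log2 fold change of -1.01 ± 0.173 (SE). Rpl39l was at 10.6, 16.3 and 12.9 CPM against 7.61, 3.67 and 7.84 CPM, at -1.07 ± 0.265 (SE). Neither overlapped between groups, both missed the threshold in edgeR (adjusted p = 0.365 and 0.377), and both passed it in DESeq2 (adjusted p = 0.000259 and 0.00466). The germ cell markers had a median log2 fold change of -0.80, with 14 of the 15 tested lower and 0 higher at an unadjusted p below 0.05. Dppa3, a germ cell gene that had the lowest p of the list, was at 74.7, 105 and 83.4 CPM in the controls and 51.7, 20.4 and 39.2 CPM in the cKO samples (adjusted p = 0.377, edgeR). Per sample their median was -0.38, 0.15 and 0.23 in control replicates 1 to 3 and -0.30, -1.19 and -0.75 in cKO replicates 1 to 3. By these medians cKO replicate 2 was the lowest sample for the markers and for the 76 members alike. The lowest control was replicate 1 for the markers and replicate 3 for the members.

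Genes that make or use ribosomes were compared with the members by counts and medians. Of 37 ribosome biogenesis genes (nucleolar factors and assembly proteins) 34 were below 0, with a median of -0.11, 3 lower and 0 higher at an unadjusted p below 0.05. The gene of lowest p was Rpf2, which brings 5S RNA into the large subunit, at 30.8, 38.0 and 32.9 CPM in the controls and 31.5, 25.1 and 28.3 CPM in the cKO samples. Their per-sample medians were -0.13, 0.11 and 0.013 in control replicates 1 to 3 and 0.0034, -0.24 and -0.097 in cKO replicates 1 to 3, so that control replicate 1 lay below cKO replicate 1. Of 78 mitochondrial ribosomal protein genes, which build the separate ribosome of mitochondria, 73 were below 0, with a median of -0.097, 11 lower and 0 higher. Mrps14 had the lowest p among them, at 34.0, 34.8 and 32.4 CPM against 30.5, 25.9 and 27.3 CPM. Of 21 translation factors, whose mRNAs often carry a TOP tract too, 15 were below 0, with a median of -0.037 and 0 past an unadjusted p of 0.05 in either direction. Eif3f had the lowest p, at 210, 203 and 218 CPM in the controls and 225, 221 and 238 CPM in the cKO samples, above the controls throughout. No gene of these lists passed an adjusted p of 0.05 in edgeR.

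Markers of the other cell types of the testis gave these medians beside the members' -0.14. The median was -0.082 for 10 Sertoli cell markers (6 below 0, 0 lower and 2 higher at an unadjusted p below 0.05) and -0.31 for 7 fetal Leydig cell markers (7 below 0, 0 in either direction). It was 0.011 for 7 endothelial markers (3 below 0, 1 lower), -0.050 for 7 macrophage markers (6 below 0, 1 higher) and -0.041 for 7 erythroid markers (4 below 0, 0 in either direction). It was 0.64 for 8 pre-granulosa markers (0 below 0, 4 higher) and 0.18 for the 4 of 6 mesonephros markers tested (2 below 0, 2 higher), and both of these lists were highest in cKO replicate 3, at 1.41 and 0.52 per-sample median. For 10 immediate early and stress genes it was 0.14 (3 below 0, 1 higher). The gene of lowest p was Sox9, Insl3, Pecam1, Mrc1, Hbb-bh1, Fst, Pax8 and Junb in this order of lists, with adjusted p-values (edgeR) of 0.377 to 0.617. Summed Sertoli cell marker levels were 1731 to 2186 CPM in controls and 1639 to 2211 CPM in cKO samples, and those of macrophage markers 40.2 to 43.8 CPM and 41.2 to 44.1 CPM. The part of cell composition in the lower level of the members was not tested.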

How the data were processed

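The deposited values were raw counts of read pairs per gene, without normalization, for 3 control and 3 cKO libraries. The authors aligned paired reads to mm10 with STAR (2.5 in the submitters' processing notes) and counted them over RefSeq genes with featureCounts of Subread (1.5.0-p1) in a strand-specific mode. No column was left unused. Nothing states that replicates came from separate litters, so p-values measure the spread between these samples.

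Genes were kept by filterByExpr (minimum count 10), scaled by TMM and tested with edgeR 4.0.16 (quasi-likelihood, two-sided, no covariates, Benjamini-Hochberg over 15577 genes, threshold 0.05). R 4.3.3, DESeq2 1.42.0 and limma 3.58.1 served for alternatives. Log2 CPM used a prior count of 2. The fits were tested on simulated counts with changes larger than those of the members. That test does not cover shifts as small as theirs. Members and gene lists were chosen with earlier results of these data known. Named were the 5 members of lowest p on each side (2 on the higher side), outliers, the 3 highest and lowest per length, members with fixed roles and the gene of lowest p of each list, and other names were chosen after their values were seen. Exon lengths came from GENCODE vM21 transcripts with a RefSeq accession and were found for 97.1% of tested genes.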

Additional observations from a re-analysis of the deposited data

How the results depend on the processing

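The direction of the members' median and of their summed share held under every alternative run. DESeq2 called 1 member in place of 0. Leaving out one sample, DESeq2 called 0 to 16 (16 without control replicate 3, 3 without cKO replicate 1, 1 without control replicate 1) and edgeR 0. The share of all genes called in those DESeq2 fits is not given here, so these counts cannot be set against a background. The count lower at an unadjusted p below 0.05 was 35 (background 5.80% of all genes). It was 11 to 58 with one sample left out (11 without cKO replicate 2, background 3.59%, and 58 without control replicate 3, background 4.93%). Deviations of same-numbered samples correlated at -0.203, -0.266 and -0.13 over all tested genes. These values show no pairing by replicate number and cannot exclude one. With a replicate block the count lower at an unadjusted p below 0.05 was 10, while the background fell from 5.80 to 3.19%. Members above 0 were 2, 1 in thinned libraries, 0 to 3 with one sample left out and 9 after subtraction of length-class medians, where the median moved from -0.14 to -0.060. With one sample left out the median was -0.19 to -0.11, the SD 0.052 to 0.084, the small minus large difference -0.020 to 0.0064 and the share difference -0.456 to -0.258 percentage points. With TMM-scaled libraries the share difference was -0.329. Rps2 was at -0.0030 in thinned libraries. With one sample left out Rps2 ranged from -0.078 to 0.075, Rpl29 from -0.10 to 0.19 and Rplp2 from -0.18 to 0.0014. Of 390 comparisons of a named member with an alternative, 7 turned direction, 1 passed the threshold and 382 did neither. The cause of these shifts was not tested. Control replicate 1 had the fewest counts (16139487). With thinned libraries 39 members were lower at an unadjusted p below 0.05, where the background was 6.06% of all genes. In that fit the median log2 fold change over all tested genes was -0.012, against -0.0034 in the main fit.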
